A study of Mus musculus with 36 samples.

Results

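Aminoacyl-tRNA synthetases are the enzymes that load each tRNA with its amino acid, and their genes were described here in mouse liver across the day. The members were the genes whose single annotated symbol was on a list of 35 cytosolic and mitochondrial synthetases. Of these, 33 were measured among 22180 genes: 16 act in the cytosol, 2 (Gars and Kars) serve both the cytosol and mitochondria from 1 gene, and 15 act in mitochondria. Aars was skipped because its probe set was annotated to more than 1 gene, Dars was not listed in the annotation used here, and Mars was found under its newer symbol Mars1. Each member was read from 1 probe set, and Nars2 was the member with a second one.

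The livers came from TB mice, which carried KrasLSL-G12D;p53fl/fl and were labelled with lung adenocarcinoma, and from WT mice, both of the C57BL/6 background. KrasLSL-G12D is an oncogene allele held silent by a stop cassette and p53fl/fl is a floxed tumour suppressor gene, so both act after Cre recombination, and how Cre was delivered is not given in the sources used here. The light cycle was 12 h on and 12 h off, and livers were taken at Zeitgeber time (ZT, hours after lights on) 0, 4, 8, 12, 16 and 20. With 3 arrays for every genotype at every time there were 36 arrays. Nothing in the labels says that replicates are separate animals, and the p-values rest on the spread between arrays.

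The cytosolic enzymes supply charged tRNA to cytosolic ribosomes, and several of them sit with scaffold proteins in a large multisynthetase complex. The mitochondrial enzymes are separate nuclear genes for most amino acids and serve translation of the proteins that mitochondria encode. Many cytosolic synthetase genes, with genes of amino acid synthesis and transport, are known targets of the transcription factor ATF4, which is made when charged tRNA is short or the endoplasmic reticulum is stressed. In liver, food intake sets a daily cycle of amino acid supply.

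The arrays gave an intensity per probe set. Levels of single genes below are log2(intensity + 16), so that a difference of 1 is a doubling of intensity + 16. Summed levels of markers are log2 of the summed intensity, without the added 16. No member had a value under 16 intensity units on any array, whereas 23.0% of all values were under 16. The summed level of 6 hepatocyte markers (Alb, Apoa1, Ttr, Cps1, Cyp2e1 and Tat) was 15.48 to 15.62 in TB and 15.43 to 15.63 in WT arrays. The summed level of 6 skeletal muscle markers was 17.98 in WT ZT 12 replicate 3, against 9.19 in the next highest array. Within groups the arrays correlated at 0.928 to 0.989. The arrays also fell into 2 sets that cut across all groups, a larger set of 24 and a smaller set of 12 with 1 array per group, and values by set are given for the results the text turns on. In bulk liver, fewer cells of a type and less RNA per cell cannot be told apart.

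Tars, which encodes the cytosolic threonyl-tRNA synthetase, had the strongest daily rhythm of the family in both genotypes. In TB livers its level was 9.71, 10.18 and 10.19 at ZT 0, then 10.05, 9.78 and 9.93 at ZT 4, then 8.80, 9.03 and 8.86 at ZT 8. It was 8.54, 8.70 and 8.82 at ZT 12, 9.58, 9.46 and 9.54 at ZT 16, and 10.06, 10.07 and 9.99 at ZT 20 in TB. The 6 TB arrays of ZT 8 and ZT 12 thus lay below every TB array of the other times.

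In WT livers Tars was 10.24, 10.15 and 10.04 at ZT 0, 10.16, 10.05 and 10.13 at ZT 4, and 9.45, 9.19 and 9.29 at ZT 8. It was 9.16, 8.89 and 8.64 at ZT 12, 9.49, 9.48 and 9.73 at ZT 16, and 10.00, 10.03 and 9.83 at ZT 20 in WT. The low point was at ZT 12 in both genotypes, around the change from light to dark. The fitted 24 h cosine had an amplitude (height above its mean) of 0.73 ± 0.07 (SE) in TB and 0.62 ± 0.07 in WT, from 18 arrays each.

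The Tars fit corresponds to a peak 2.77 times the trough in TB and 2.35 times in WT, on the scale of intensity + 16. The rhythm had an adjusted p of 1.22e-08 in TB and 4.01e-07 in WT (limma F test of cosine and sine, Benjamini-Hochberg over all 22180 genes). By this p Tars ranked 10 of 22180 genes in TB and 31 in WT. The fitted peak was at ZT 22.9 ± 0.35 h (SE) in TB and ZT 23.8 ± 0.42 h in WT, a difference of -0.96 h, and the test of equal rhythms gave an adjusted p of 0.985. Without WT ZT 12 replicate 3, the array high in muscle markers, the WT amplitude was 0.56.

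**Figure D1:**
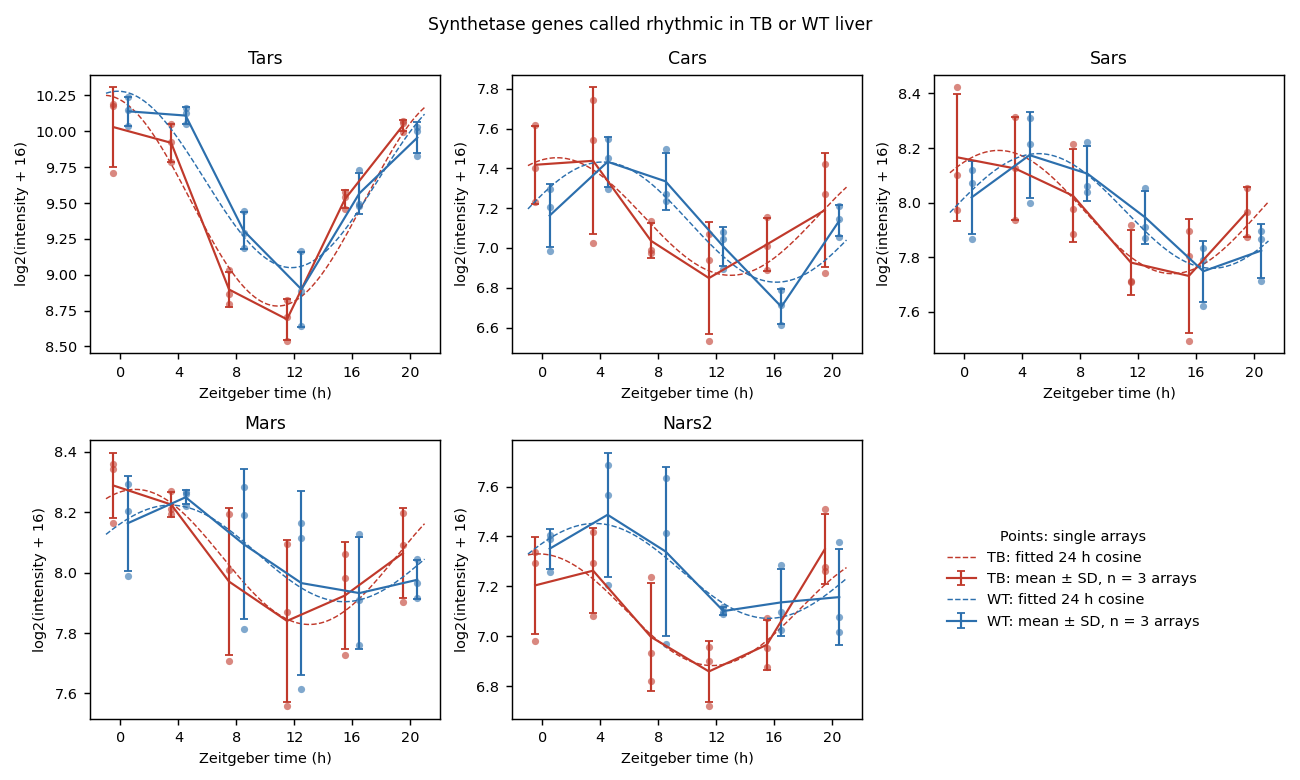
Levels of Tars, Cars, Sars, Mars and Nars2, as log2(intensity + 16), by Zeitgeber time in h for TB (red) and WT (blue). Points are single arrays, lines with bars are means ± SD of 3 arrays, and dashed lines are the fitted 24 h cosines. Tars spans 8.54 to 10.19 in TB and 8.64 to 10.24 in WT, and its axis covers a wider range than those of the other 4 genes.

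The Tars promoter is shown because Tars moved furthest, and because it holds 2 of the 3 motifs searched. The sequences are from RefSeq (GRCm38.p6), 5′ to 3′ on the gene's strand, with motif matches in capitals and positions counted from the annotated start of the gene, with +1 as its first base. TGATGNAA, or TTNCATCA on the other strand, is the core of the composite element that C/EBP and ATF factors can bind, and CACGTG is the E-box that CLOCK and BMAL1, among others, can bind. In Tars, chr15:11399629-11399908 on the minus strand, the window runs from -250 to 30, with TTGCATCA at -15 to -8 and CACGTG at 20 to 25. Shorter windows around the matches of Gars, Iars and Yars stand beside it, and Sars, rhythmic in both genotypes, stands as a promoter with no match.
Tars: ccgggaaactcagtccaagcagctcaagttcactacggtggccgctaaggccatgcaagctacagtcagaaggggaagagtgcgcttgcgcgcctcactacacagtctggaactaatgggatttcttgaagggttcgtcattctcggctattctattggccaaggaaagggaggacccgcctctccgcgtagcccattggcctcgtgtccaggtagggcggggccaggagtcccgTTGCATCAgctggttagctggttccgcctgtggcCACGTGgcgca
Gars: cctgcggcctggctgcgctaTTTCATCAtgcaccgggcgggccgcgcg
Iars: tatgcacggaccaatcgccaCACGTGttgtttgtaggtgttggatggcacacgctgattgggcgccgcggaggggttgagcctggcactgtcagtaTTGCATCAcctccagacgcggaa
Yars: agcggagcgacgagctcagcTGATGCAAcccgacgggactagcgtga
Sars: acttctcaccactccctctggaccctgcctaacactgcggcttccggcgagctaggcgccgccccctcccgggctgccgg

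The Gars window is chr6:55037951-55037998 on the plus strand, with TTTCATCA at -30 to -23. The Iars window is chr13:49682041-49682159 on the plus strand, with CACGTG at -69 to -64 and TTGCATCA at 8 to 15. The Yars window is chr4:129189886-129189932 on the plus strand, with TGATGCAA at 4 to 11, and the Sars window is chr3:108445230-108445309 on the minus strand. The Tars and Iars promoters thus held both motifs, while Gars and Yars held the composite core without an E-box.

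Of the 33 measured members, 25 had an entry in the promoter table, which covers 250 bases before to 50 bases after each gene's start. TGATGNAA on either strand was found in 4 of these 25 (16.0%; Gars, Iars, Tars and Yars), against 4.51% of 27025 promoters. CACGTG, which reads the same on both strands, was found in 4 of 25 (16.0%; Ears2, Farsb, Iars and Tars), against 8.09%. TGACGTCA, the cyclic AMP response element, was found in 0 of 25, against 2.03%. In a list of ATF4 program genes 10 of 25 promoters held the composite core and 4 of 25 held the E-box. A match shows that the letters are there, and none of the 3 motifs overlaps another in these windows. Of the 4 members with the composite core, Tars was called rhythmic in the reported fit, and Gars, Iars and Yars were not. Iars in TB (limma adjusted p = 0.0583) and Yars in WT (0.0685) were close to the threshold of 0.05. Iars was called in TB with a filter on low genes, with the array set as a block and in the larger set alone. Yars was called in WT with quantile normalization, with that filter and with that block. A link between motif and rhythm was not tested.

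Cars and Sars, the cytosolic cysteinyl- and seryl-tRNA synthetases, were also called rhythmic in both genotypes, with fitted amplitudes of 0.21 to 0.30. Cars in TB was 7.40, 7.23 and 7.62 at ZT 0, 7.74, 7.03 and 7.54 at ZT 4, and 6.98, 7.14 and 6.99 at ZT 8. In TB it was 6.53, 6.94 and 7.07 at ZT 12, 7.01, 6.89 and 7.16 at ZT 16, then 7.27, 7.42 and 6.87 at ZT 20. The lowest Cars array in TB was at ZT 12, and the arrays of that time spread over more than those of ZT 8.

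Cars in WT was 7.21, 7.30 and 6.99 at ZT 0, 7.55, 7.30 and 7.45 at ZT 4, and 7.5, 7.27 and 7.24 at ZT 8. In WT it was 6.89, 7.08 and 7.04 at ZT 12, 6.79, 6.71 and 6.62 at ZT 16, then 7.21, 7.15 and 7.05 at ZT 20. The low time was thus ZT 16 in WT, when the 3 TB arrays lay above the 3 WT arrays, whereas at ZT 8 the 3 TB arrays lay below them. The fitted amplitude was 0.30 ± 0.06 (SE) in TB, with a peak at ZT 1.0 ± 0.82 h and an adjusted p of 0.00839 by limma. In WT the amplitude was 0.30 ± 0.06, with a peak at ZT 4.2 ± 0.80 h and an adjusted p of 0.00556.

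The fitted Cars peak was 3.15 h earlier on the clock in TB than in WT, as a difference of -3.15 h, and Cars had the smallest p of all members in the test of a difference in rhythm. That p was 0.0378 before adjustment and 0.985 after adjustment over all genes (limma F test), so the change in timing did not pass. Cars also had the smallest p of the members in the test of whether the genotype difference varied with time, at 0.0711 before adjustment and 1.0 after. In the fit with 6 separate times in place of a cosine the Cars rhythm was called in WT and not in TB (adjusted p = 0.106), and in the larger array set the TB rhythm was not called (0.0946).

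Sars had means ± SD of 8.17 ± 0.23, 8.12 ± 0.19, 8.03 ± 0.17, 7.78 ± 0.12, 7.73 ± 0.21 and 7.97 ± 0.09 from ZT 0 to ZT 20 in TB (n = 3 each). In WT its means were 8.02 ± 0.13, 8.17 ± 0.16, 8.11 ± 0.10, 7.95 ± 0.10, 7.75 ± 0.11 and 7.82 ± 0.10. Its low time was ZT 16 in both genotypes. The amplitude was 0.23 ± 0.05 (SE) in TB, with a peak at ZT 2.4 ± 0.80 h, and 0.21 ± 0.05 in WT, with a peak at ZT 5.1 ± 0.87 h. The adjusted p was 0.00725 in TB and 0.0121 in WT, and neither call held with 6 separate times (adjusted p = 0.184 in TB and 0.242 in WT).

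Mars, the methionyl-tRNA synthetase of the cytosol and a part of the multisynthetase complex, was called rhythmic in TB and not in WT. Its means ± SD were 8.29 ± 0.11, 8.22 ± 0.04, 7.97 ± 0.24, 7.84 ± 0.27, 7.92 ± 0.18 and 8.06 ± 0.15 from ZT 0 to ZT 20 in TB, and 8.16 ± 0.16, 8.25 ± 0.02, 8.09 ± 0.25, 7.96 ± 0.30, 7.93 ± 0.18 and 7.98 ± 0.06 in WT (n = 3 each). The amplitude was 0.22 ± 0.06 (SE) in TB (limma adjusted p = 0.0367) and 0.16 ± 0.06 in WT (0.209). The difference in rhythm itself did not pass (adjusted p = 0.985), so the genotypes were not shown to differ. The TB call was lost in 8 of 36 fits that left out 1 array, and its adjusted p was highest, at 0.148, without TB ZT 12 replicate 1. It was also lost with a pseudocount of 1 (0.0529), quantile normalization (0.0779), the larger array set alone (0.0764) and 6 separate times (0.439).

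Nars2, the mitochondrial asparaginyl-tRNA synthetase, was the 1 mitochondrial member with a call in the reported fit, again in TB. Its means ± SD were 7.20 ± 0.19, 7.26 ± 0.17, 7.00 ± 0.22, 6.86 ± 0.12, 6.97 ± 0.10 and 7.35 ± 0.14 from ZT 0 to ZT 20 in TB, and 7.35 ± 0.08, 7.49 ± 0.25, 7.34 ± 0.34, 7.10 ± 0.01, 7.14 ± 0.13 and 7.16 ± 0.19 in WT (n = 3 each). The amplitude was 0.22 ± 0.06 (SE) in TB (limma adjusted p = 0.0469) and 0.19 ± 0.06 in WT (0.107), with peaks at ZT 23.7 in TB and ZT 3.6 in WT. The difference in rhythm had an adjusted p of 0.985, and the TB call was lost in 24 of 36 fits that left out 1 array. It was also lost with a pseudocount of 1 (adjusted p = 0.0576), the larger array set alone (0.0649) and 6 separate times (0.273). In the larger array set Nars2 was called rhythmic in WT instead. The second Nars2 probe set was dimmer, with 6.12 ± 0.17 in TB and 6.13 ± 0.21 in WT arrays (SD, n = 18 each), and with the mean of both probe sets the TB rhythm had an adjusted p of 0.757.

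Iars2 and Lars, the mitochondrial isoleucyl- and the cytosolic leucyl-tRNA synthetase, had with Nars2 the next smallest p-values after Cars in the test of a difference in rhythm, and none of these passed. Iars2 had means ± SD of 8.12 ± 0.36, 8.21 ± 0.32, 8.01 ± 0.12, 7.87 ± 0.29, 7.88 ± 0.08 and 8.01 ± 0.19 from ZT 0 to ZT 20 in TB, and 7.81 ± 0.08, 8.19 ± 0.17, 8.14 ± 0.05, 8.08 ± 0.07, 8.00 ± 0.15 and 7.96 ± 0.31 in WT (n = 3 each). Lars had 7.16 ± 0.21, 7.14 ± 0.18, 6.93 ± 0.05, 6.84 ± 0.14, 6.84 ± 0.20 and 7.10 ± 0.13 in TB, and 7.06 ± 0.26, 7.23 ± 0.05, 7.06 ± 0.26, 7.09 ± 0.20, 6.90 ± 0.06 and 6.96 ± 0.10 in WT. The fitted peaks were at ZT 2.3 in TB and ZT 8.6 in WT for Iars2, and at ZT 0.8 in TB and ZT 5.1 in WT for Lars. The unadjusted p was 0.0597 for Iars2, 0.0611 for Nars2 and 0.0765 for Lars, and each was 0.985 after adjustment (limma).

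Over the whole family, 5 of 33 members were called rhythmic in TB (15.2%; Tars, Sars, Cars, Mars and Nars2), against 4.95% of all genes. In WT 3 of 33 were called (9.09%; Tars, Cars and Sars), against 6.45% of all genes, and these 3 were called in both genotypes, against 2.68% of all genes. Before adjustment, 17 of 33 had a p under 0.05 in TB (51.5%, against 16.8% of all genes) and 10 of 33 in WT (30.3%, against 16.8%). No member and no gene passed in the test of a difference in rhythm (0.0%), and unadjusted that p was under 0.05 for Cars alone (3.03%, against 4.8%). The counts for TB depended on single arrays, since they were 3 without TB ZT 0 replicate 3, ZT 4 replicate 2, ZT 12 replicate 1, ZT 16 replicate 1 or ZT 20 replicate 1, and 7 without TB ZT 0 replicate 1. Tars, Cars and Sars kept their calls in both genotypes in all 36 such fits. With the array set as a block 9 members were called in TB, against 7.48% of all genes, and 5 in WT, against 9.03%. With the larger set alone 6 were called in TB, against 4.25% of all genes, and 6 in WT, against 6.57%. In TB these were Tars, Sars, Iars, Farsb, Cars2 and Yars2, without Cars, Mars and Nars2. In WT they were Tars, Cars, Sars, Iars2, Nars2 and Vars2.

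The fitted amplitudes had a median of 0.13 over members in TB and 0.12 in WT, against 0.09 over all genes in each genotype. All genes include dim ones, whose changes the added 16 makes smaller, and no member was that dim. The medians and shares of members and of all genes are thus not like for like. The amplitude was higher in TB than in WT for 23 of 33 members (69.7%, against 50.4% of all genes). The fitted peak fell between ZT 20 and ZT 4, around the end of the dark phase, for 26 of 33 members in TB (78.8%, against 32.5% of all genes) and for 15 of 33 in WT (45.5%, against 30.0%). This window was chosen after the values were seen, and peak times of members with low amplitude are poorly fixed. Yars, the tyrosyl-tRNA synthetase, came closest to a call in WT without one in the reported fit, with an amplitude of 0.17 ± 0.05 (SE) and an adjusted p of 0.134 in TB and of 0.18 ± 0.05 and 0.0685 in WT (limma).

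**Figure D2:**
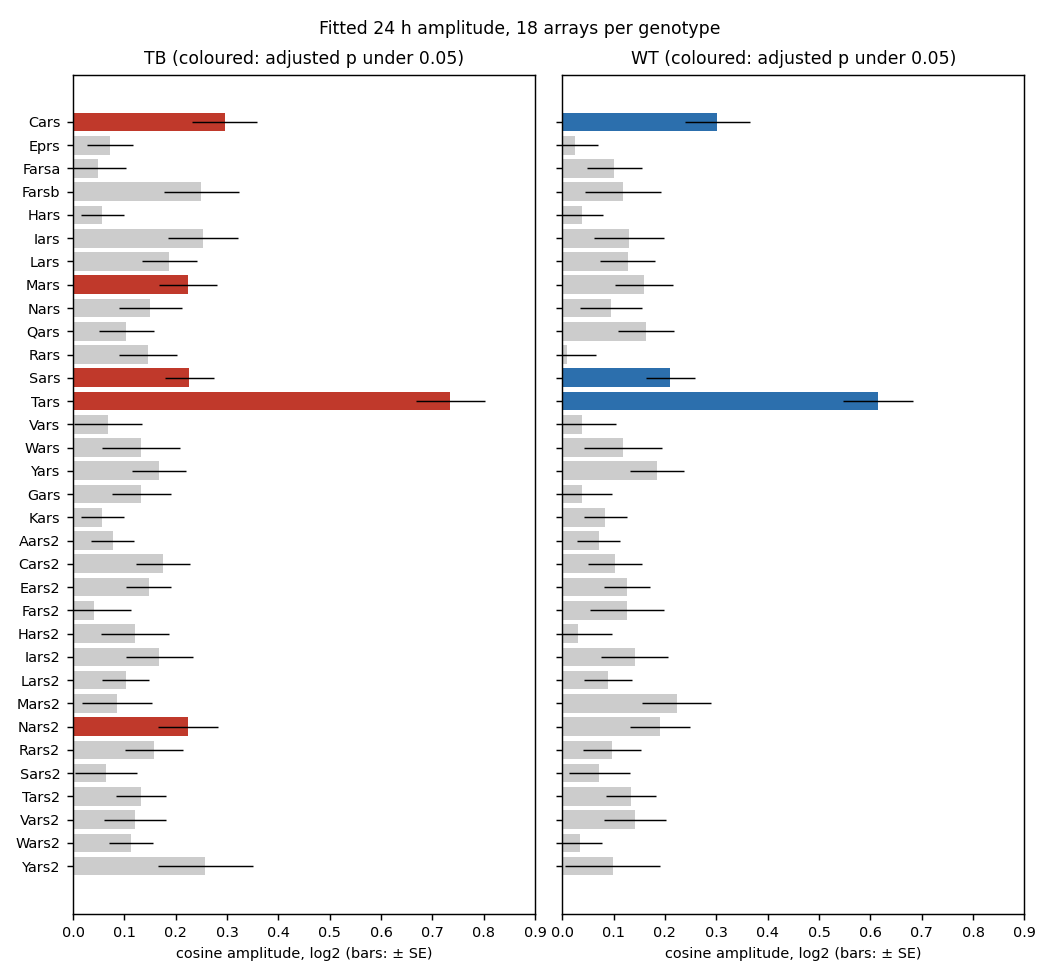
Fitted 24 h cosine amplitude (log2, bars ± SE) of each of the 33 synthetase genes in TB (left) and WT (right), with cytosolic genes at the top, Gars and Kars below them and mitochondrial genes at the bottom. Coloured bars mark rhythms with a limma adjusted p under 0.05, 5 in TB and 3 in WT. Tars stands apart in both panels, at 0.73 in TB and 0.62 in WT.

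Averaged over the 6 times, no synthetase gene passed the test between TB and WT livers, and most had slightly lower values in TB. In this comparison limma called 0 of 33 members after adjustment, against 39 of 22180 genes (0.176%). Leaving out 1 array gave 0 members each time, while the count over all genes was lowest, at 11, when TB ZT 20 replicate 2 was left out, and highest, at 109, when TB ZT 8 replicate 2 was. An unadjusted p under 0.05 was found for 3 members (9.09%; Tars, Lars2 and Nars2), all lower in TB, against 11.0% of all genes in either direction and 5.35% lower in TB. The difference was negative for 28 of 33 members (84.8%), against 46.2% of all genes. The median difference was -0.07 over the 33 members, against 0.01 over all genes. Members share the arrays and are not replicates, so these shares are a description.

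The differences of single members ran from -0.17 for Yars2, the mitochondrial tyrosyl-tRNA synthetase, to 0.04 for Aars2, the mitochondrial alanyl-tRNA synthetase. Lars2, the mitochondrial leucyl-tRNA synthetase, had the smallest p of the members. Its lowest, median and highest arrays were 6.49, 6.82 and 7.02 in TB and 6.75, 6.95 and 7.15 in WT, so the genotypes overlapped over most of their range. Its difference was -0.15 ± 0.05 (SE), a level 0.901 times that of WT, with an adjusted p of 0.209.

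Tars was 8.54, 9.64 and 10.19 at its lowest, median and highest in TB, and 8.64, 9.78 and 10.24 in WT, a span set by its rhythm. Its difference was -0.15 ± 0.05 (adjusted p = 0.246). Nars2 was 6.72, 7.08 and 7.51 in TB and 6.97, 7.23 and 7.69 in WT, with a difference of -0.16 ± 0.06 (0.309), which was -0.08 (0.493) with the mean of both its probe sets. Farsb, a subunit of the cytosolic phenylalanyl-tRNA synthetase, was 7.69, 8.15 and 8.77 in TB and 7.98, 8.32 and 8.62 in WT, with a difference of -0.15 ± 0.08 (0.491). For each of these 3 the arrays of both genotypes overlapped over most of their range.

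By location, the median difference was -0.05 over the 18 cytosolic and dual genes, 16 of them negative, and -0.08 over the 15 mitochondrial genes, 12 of them negative. The 7 measured enzymes of the multisynthetase complex (Eprs, Iars, Kars, Lars, Mars, Qars and Rars) were negative in 7 of 7, with a median of -0.07, and the 11 cytosolic and dual genes outside it had a median of -0.05. No member was lower in TB at each of the 6 times, and 14 were lower at 5 of them. The 5 members with a positive difference over times were Cars, Yars, Aars2, Ears2 and Mars2, each by 0.04 or less.

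**Figure D3:**
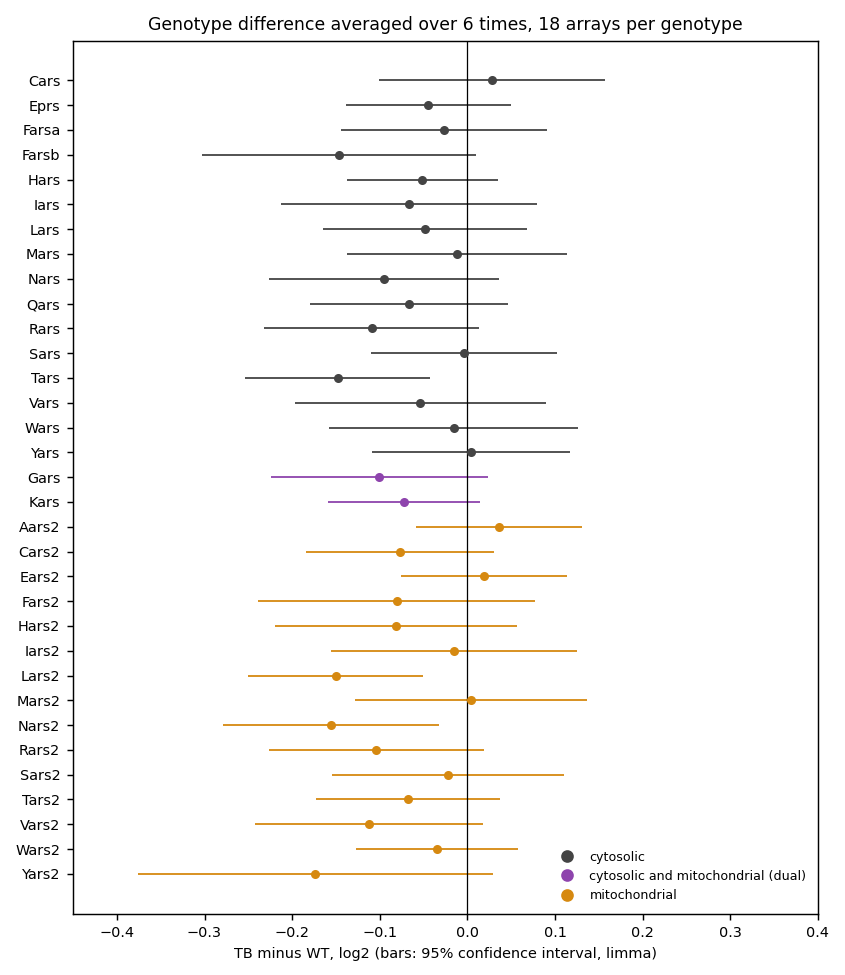
TB minus WT difference (log2) of each synthetase gene averaged over the 6 times, with the 95% confidence interval from limma, for cytosolic (grey), dual (purple) and mitochondrial (orange) genes. Most points lie left of 0, between -0.17 and 0.04, and the intervals of Tars, Lars2 and Nars2 lie wholly below 0 before adjustment.

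Time by time, the family was furthest below WT at ZT 8 and ZT 12 and was not below it at ZT 20. The median difference over members was -0.02 at ZT 0, -0.07 at ZT 4, -0.12 at ZT 8, -0.16 at ZT 12, -0.07 at ZT 16 and 0.05 at ZT 20. Over all genes the median was 0.02, 0.00, -0.02, 0.02, 0.02 and 0.01 at those times. The number of members with a negative difference was 19, 25, 27, 29, 24 and 9 of 33 from ZT 0 to ZT 20, against 44.2%, 51.3%, 55.1%, 46.5%, 44.4% and 47.7% of all genes. At ZT 12 the median was -0.21 over cytosolic and dual genes and -0.09 over mitochondrial genes. WT ZT 12 replicate 3, high in muscle markers, is 1 of the 3 WT arrays there, and its part in these values was not tested. The mean of the 33 members on it was -0.09 from its group mean, against 0.07 in replicate 1 and 0.02 in replicate 2. It was thus the lowest of the 3 WT arrays, and it belongs to the smaller array set described below.

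No member passed at any single time after adjustment, and 1 of 22180 genes did so, at ZT 8 (0.00451%). Unadjusted p-values under 0.05 were found for 3 members at ZT 8 (9.09%, against 5.3% of genes), 2 at ZT 12 (6.06%, against 7.41%) and 1 at ZT 20 (3.03%, against 1.81%). There were 0 at ZT 0, ZT 4 and ZT 16, against 4.74%, 3.26% and 5.38% of genes. At ZT 8 Tars was 8.80, 9.03 and 8.86 in TB, against 9.45, 9.19 and 9.29 in WT, so that the groups did not overlap. The difference was -0.41 ± 0.13 (SE), with a p of 0.00282 before adjustment and 0.726 after (limma, n = 3 each).

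Hars2, the mitochondrial histidyl-tRNA synthetase, was 6.30, 6.68 and 6.45 in TB and 7.13, 6.57 and 6.91 in WT at ZT 8, and the groups overlapped. Its difference was -0.40 ± 0.17 (adjusted p = 0.881 by limma). Kars, the lysyl-tRNA synthetase of cytosol and mitochondria, was 8.27, 8.41 and 8.34 in TB and 8.69, 8.71 and 8.40 in WT at ZT 12, where the third WT value is from the array high in muscle markers. Its difference was -0.26 ± 0.10 (adjusted p = 0.586). Mars2, the mitochondrial methionyl-tRNA synthetase, was 5.40, 5.82 and 5.505 in TB and 5.81, 6.34 and 5.74 in WT at ZT 20, with a difference of -0.39 ± 0.16 (adjusted p = 1.0). Gars at ZT 12 and Nars2 at ZT 8 were the other 2 members with an unadjusted p under 0.05, with differences of -0.32 and -0.34.

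The members whose 3 TB arrays all lay below the 3 WT arrays were Eprs, Hars and Lars2 at ZT 4 (9.09% of members, against 4.58% of genes), Cars, Tars and Fars2 at ZT 8 (9.09%, against 5.85%), Eprs, Nars2 and Vars2 at ZT 12 (9.09%, against 4.26%), Rars and Rars2 at ZT 16 (6.06%, against 5.36%) and Wars2 at ZT 20 (3.03%, against 3.3%). Those with all TB arrays above were Wars at ZT 4 (3.03%, against 4.8%), Cars and Aars2 at ZT 16 (6.06%, against 7.98%) and Rars2 at ZT 20 (3.03%, against 3.26%). At ZT 0 no member lay below (2.2% of genes) or above (4.27%), and at ZT 8 and ZT 12 none lay above (3.54% and 6.79%). Rars2, the mitochondrial arginyl-tRNA synthetase, thus lay below WT at ZT 16 and above it at ZT 20. The dependence of the genotype difference on time was called for 0 members and 0 genes (0.0%), and before adjustment for 0 members, against 2.48% of genes.

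After Cars and Tars, the smallest unadjusted p-values for that dependence were those of Wars (0.153) and Mars2 (0.176), both 1.0 after adjustment (limma). Wars, the cytosolic tryptophanyl-tRNA synthetase, had means ± SD of 7.26 ± 0.11, 7.35 ± 0.01, 7.11 ± 0.19, 6.96 ± 0.15, 7.42 ± 0.07 and 7.27 ± 0.28 from ZT 0 to ZT 20 in TB, and 7.55 ± 0.46, 7.25 ± 0.08, 7.04 ± 0.18, 7.26 ± 0.24, 7.22 ± 0.23 and 7.13 ± 0.19 in WT (n = 3 each). Its WT arrays at ZT 0 were 7.75, 7.88 and 7.03, a wider spread than in TB, where they were 7.32, 7.13 and 7.32. Mars2 had means of 5.74 ± 0.28, 5.54 ± 0.20, 5.66 ± 0.15, 5.85 ± 0.23, 5.72 ± 0.11 and 5.57 ± 0.22 in TB, and 5.74 ± 0.13, 5.34 ± 0.15, 5.55 ± 0.13, 5.77 ± 0.21, 5.70 ± 0.10 and 5.96 ± 0.33 in WT.

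**Figure D4:**
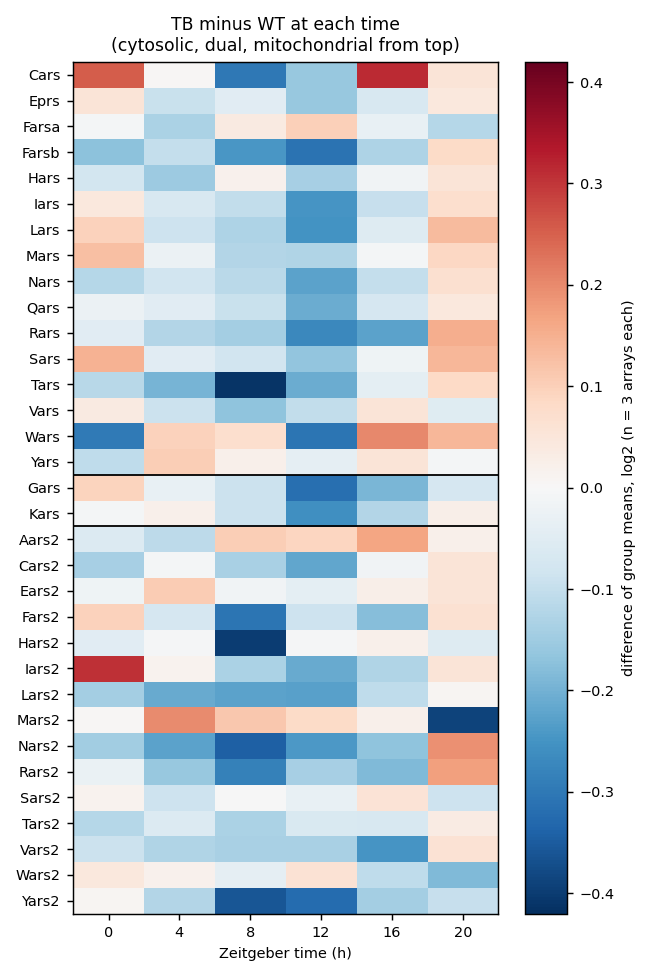
TB minus WT difference of group means (log2, n = 3 arrays each) for each synthetase gene (rows, cytosolic, dual and mitochondrial from the top) at each Zeitgeber time (columns, h). Blue cells, lower in TB, prevail at ZT 8 and ZT 12 (27 and 29 of 33 genes), and at ZT 20 they are fewer (9 of 33). The deepest blue cells are Tars and Hars2 at ZT 8 and Mars2 at ZT 20, at -0.41, -0.40 and -0.39.

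The genotype difference of most members had opposite signs in the 2 array sets, and the test of that contrast passed for no member after adjustment. The sets were found from probe sets without a gene symbol, as the sign of the first component of deviations from the group means (28.6% of the within-group variance), so no synthetase value was used to form them. What separates them is not given in the sources used here. In the larger set alone, 33 of 33 members had a negative difference (48.8% of all genes), with a median of -0.13. In the smaller set 31 of 33 had a positive one, with a median of 0.07 and with Lars2 and Wars2 as the exceptions, while 41.2% of all genes were negative there.

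Fitted on the larger set alone, 8 members were called, each lower in TB (24.2%, against 3.70% of all genes called lower and 5.19% called in either direction). They were Farsb, Rars, Tars, Lars2, Nars2, Rars2, Vars2 and Yars2, with adjusted p-values of 0.0170 to 0.0468 (limma). Yars2 had the largest difference of these. Its lowest, median and highest arrays were 6.41, 6.94 and 7.25 in TB and 6.79, 7.20 and 7.45 in WT in the larger set (n = 12 each). They were 7.23, 7.54 and 7.71 in TB and 7.15, 7.33 and 7.58 in WT in the smaller set (n = 6 each). The TB arrays of the smaller set thus lay above most TB arrays of the larger set, while the WT arrays of both sets overlapped.

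The Yars2 difference was -0.33 ± 0.07 (SE) over the 24 arrays and 0.14 over the other 12. For Nars2 it was -0.28 ± 0.06 in the larger and 0.10 in the smaller set. For Tars it was -0.24 ± 0.06 in the larger and 0.03 in the smaller set, and for Lars2 it was -0.21 ± 0.05 in the larger and -0.03 in the smaller set. In the smaller set 0 members and 0 of all genes (0.0%) were called. The test of the difference between sets passed for 0 members after adjustment, against 154 genes (0.694%), with the smallest adjusted p for Yars2 at 0.0593. Its unadjusted p was under 0.05 for 15 of 33 members (45.5%, against 19.6% of all genes).

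The mean of the 33 members on each array, taken as a deviation from its group mean, was 0.02 to 0.15 in the 6 TB arrays of the smaller set and -0.13 to 0.04 in its 6 WT arrays. Among the 24 others it was -0.11 to 0.05 in 12 TB arrays and -0.03 to 0.11 in 12 WT arrays. The TB arrays of the smaller set were above their group means in 6 of 6. The Tars rhythm had a like size in both sets, with TB amplitudes of 0.74 in the larger and 0.73 in the smaller set, and WT amplitudes of 0.56 in the larger and 0.72 in the smaller set. In the smaller set, with 1 array per group, 0 members were called rhythmic, against 0.0857% of all genes in TB and 0.0721% in WT.

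**Figure D5:**
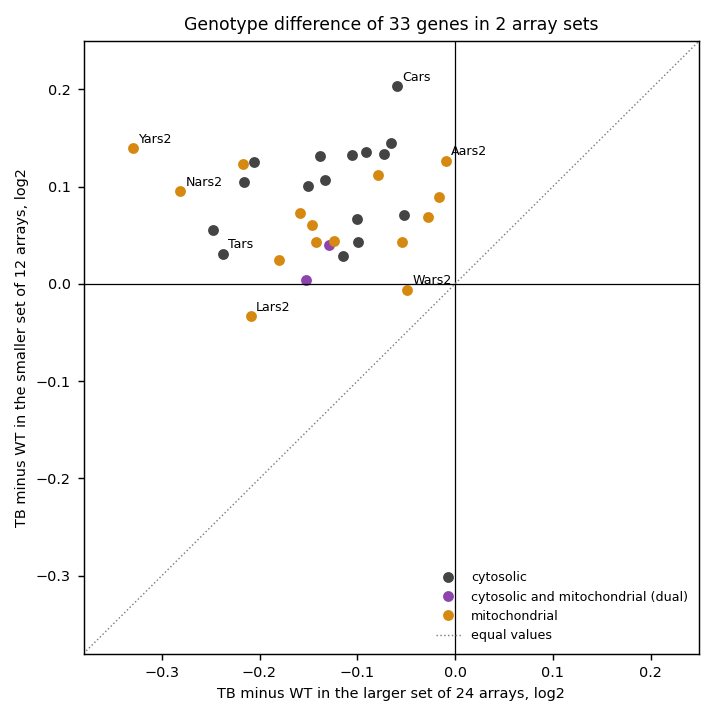
TB minus WT difference (log2) of each synthetase gene in the larger set of 24 arrays (horizontal) and in the smaller set of 12 arrays (vertical), coloured by location. All 33 points lie left of 0, between -0.33 and -0.01, and 31 lie above 0 on the vertical axis, with Lars2 and Wars2 below.

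Partners of the synthetases were described from lists of genes with related roles. The 2 measured scaffolds of the multisynthetase complex, Aimp1 and Eef1e1, had differences of -0.11 ± 0.06 and -0.12 ± 0.09 (SE; adjusted p = 0.531 and 0.661 by limma). Of 4 genes that complete mitochondrial charging, Gatb, Gatc and Qrsl1 (subunits of the enzyme that converts glutamate on tRNA to glutamine) and Mtfmt (which formylates the initiator methionine), 4 were negative and 0 were called. Gatb had the most negative difference of these 4, at -0.17 ± 0.05 (adjusted p = 0.198), with 7.13 in TB and 7.30 in WT. Dtd1 and Dtd2, which proofread charged tRNA, and Ptrhd1, which was listed with them, had a median of -0.05 over the 3 measured genes and 0 calls.

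Elongation factors carry charged tRNA to the ribosome and move it along. The genes listed under that name had different medians by compartment, and this contrast was not tested. The 6 cytosolic ones had a median difference of -0.04 and 0 calls, with Eef1g, a subunit of the exchange factor, at -0.10 ± 0.04 (SE; adjusted p = 0.3). The 4 mitochondrial ones (Tufm, Tsfm, Gfm1 and Gfm2) had a median of -0.13 and ran from -0.19 to -0.03, with 4 of 4 negative and 0 called. Gfm1, the mitochondrial translocase, averaged 8.54 in TB and 8.74 in WT, a difference of -0.19 ± 0.05 (0.123). Gfm1 and Tufm were called rhythmic in TB (2 of 4, against 4.95% of all genes), with amplitudes of 0.24 and 0.16 (limma adjusted p = 0.00435 and 0.0373). In WT 0 of 4 were called, against 6.45% of all genes, and Gfm1 and Tufm had amplitudes of 0.09 and 0.05 (0.590 and 0.832). The differences in rhythm did not pass (adjusted p = 0.985 for each).

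The ATF4 program, to which cytosolic synthetase genes are known to belong, had no gene called between genotypes. Among 27 measured genes the difference was positive for 17 and negative for 10, with a median of 0.02. Asns, the asparagine synthetase, averaged 6.64 in TB and 5.92 in WT, a difference of 0.73 ± 0.26 (SE; adjusted p = 0.256). Phgdh and Psat1, of serine synthesis, were at 0.15 ± 0.06 (0.347) and 0.12 ± 0.05 (0.365).

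In TB 4 of the 27 ATF4 program genes were called rhythmic (Atf4, Atf5, Ddit3 and Chac1), against 4.95% of all genes. In WT 4 of 27 were called (Atf4, Atf5, Trib3 and Chac1), against 6.45%, and 3 were called in both, against 2.68%. Atf4, the factor itself, peaked at ZT 21.7 ± 0.92 h (SE) in TB and ZT 23.0 ± 0.77 h in WT. Its amplitudes were 0.28 in TB (limma adjusted p = 0.0252) and 0.33 in WT (0.00359). The fitted peak of Tars was at ZT 22.9 ± 0.35 h in TB and ZT 23.8 ± 0.42 h in WT. The Atf4 estimate was earlier in both genotypes, but the ranges of peak ± SE overlapped, and the order was not tested. Atf5, a related factor, peaked at ZT 1.1 in TB and ZT 1.3 in WT. Chac1, which degrades glutathione, peaked at ZT 9.2 in TB and ZT 6.5 in WT.

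Within groups, the levels of cytosolic and dual synthetase genes tended to move together from array to array, and those of mitochondrial ones less so. Over the 36 arrays, deviations from the group means had a median pairwise correlation of 0.369 among the cytosolic and dual genes (153 pairs), 0.168 among the mitochondrial genes (105 pairs) and 0.234 between both kinds (270 pairs). Between members and all other genes the median was 0.0267. These values are a description, since the arrays of a pair of genes share the array set, labelling and scan, and the array sets above are part of this common movement. The median SD within groups was 0.181 for members and 0.184 for all genes.

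Markers of other cell types had sums that overlapped between genotypes. The summed level of 6 lung epithelium markers was 8.28 to 8.74 in TB and 8.19 to 8.52 in WT arrays, and that of 6 Kupffer cell markers was 9.68 to 11.01 in TB and 9.05 to 10.92 in WT arrays. The part of these cells in the synthetase levels was not tested. The 6 neutrophil markers summed to 7.36 to 8.03 in TB and 7.23 to 8.03 in WT arrays, with 1 marker, Elane, called higher in TB, and the 5 measured lymphocyte markers summed to 7.06 to 7.57 in TB and 7.01 to 7.72 in WT arrays.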

How the data were processed

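Liver RNA was hybridised to 1-colour Affymetrix arrays, 36 in all. The deposited values are linear intensity per probe set, made by the authors with Affymetrix Expression Console 1.1.1 and PLIER 2.0 per the submitters' processing notes. How PLIER was set and whether arrays were normalized to each other is not given in the sources used here. Medians per array ran from 36.3 to 43.3.

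Of 41345 probe sets, 23521 had 1 symbol in the platform annotation, 1814 several and 16010 none, and 23328 matched RefSeq GRCm38.p6. The brightest probe set per gene was kept, which left 22180 genes, and log2(intensity + 16) was fitted with limma 3.58.1 in R 4.3.3, with no filter.

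Group means gave the TB minus WT contrasts, over times and at each time, and a 24 h cosine and sine per genotype gave the rhythms. Benjamini-Hochberg adjustment ran over all genes, with a threshold of 0.05. The fits were tested on simulated data with independent noise for each gene and array. That simulation held no array sets and no movement shared by genes, so it cannot show how the fits behave with these.

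Synthetase members, partner lists and motifs were chosen with earlier results of these data known. Values by time are given for members past the threshold in any test of the reported fit. Of members with the 4 smallest p-values in a test, some are given by time, by range or by fit, and others are left out. Precision is limited by having 3 arrays per group. The alternatives were another pseudocount, quantile normalization, a filter on low genes, all probe sets of a gene, a variance trend, blocks for replicate number and array set, the larger set alone, 6 separate times and each array left out. The smaller set alone and the test between sets were added after the data were seen. Protein sequences and gene positions beyond promoters were not used here.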

Additional observations from a re-analysis of the deposited data

How the results depend on the processing

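The genotype difference over times, at each time, its dependence on time and the difference in rhythm called 0 members under every alternative run, except that the larger array set alone called 8 members over times. The number of rhythmic members in TB was 3 with a pseudocount of 1 (940 of all genes), 9 with the array set as a block (1660), 1 with 6 separate times (482) and 0 in the smaller array set (19), against 5 as reported (1099). Leaving out each array in turn gave 3 to 7 (759 to 1501). In WT it was 5 with the array set as a block (2002 of all genes), 6 for the larger set (1458) and 0 for the smaller (16), against 3 as reported (1431). The smaller set has 12 arrays, 1 per group, and fewer samples in its fits; the per-time tests and the time dependence were not run there. The median genotype difference of cytosolic and dual members was 0.103 and that of mitochondrial members 0.069 in the smaller set, against -0.053 and -0.077 over all arrays. In the smaller set 31 of 33 members had a positive difference, against 5 of 33 over all arrays. Of the differences given singly above for Lars2, Tars, Nars2 and Farsb, that of Lars2 stayed negative there (-0.033). Those of Tars (0.031), Nars2 (0.095) and Farsb (0.055) changed sign. The cause of these shifts was not tested. The genotype calls over all genes numbered 15 with a pseudocount of 1, 151 with the array set as a block and 1152 in the larger set, against 39.

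With the replicate number as a replicate block, the reported TB rhythm calls were kept for Tars, Cars, Sars and Mars and lost for Nars2 (adjusted p = 0.0578 by limma). In WT the calls of Tars, Cars and Sars were kept, and genotype calls of members over times were 0. With a block for each same-numbered TB and WT pair within a time, genotype calls were 0. Deviations of such pairs correlated at -0.052 to 0.413, over 0.1 in 14 of 18, and 25 of 36 arrays correlated best with their own number in the other genotype. At 6 of 6 times the TB and WT arrays in the smaller set carried 1 shared number. The labels give no shared litter, batch or day, and 4 pairs were not over 0.1, and the reported fits did not treat the samples as paired. These values do not exclude a pairing, and any part shared by such pairs stayed in the spread between arrays.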
